A study of Mus musculus with 8 samples.

Results

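The genes described here make, break down, anchor and read out cyclic AMP (cAMP), and their poly(A)+ transcripts were measured by RNA sequencing in mouse cortex. Members were taken by symbol from the deposited table of gene names: adenylyl cyclases (Adcy), phosphodiesterases (Pde), protein kinase A (PKA) catalytic and regulatory subunits (Prkac and Prkar), A-kinase anchoring proteins (Akap), the CREB factors with their CRTC coactivators, and the Rap exchange factors Rapgef1 to Rapgef4. This gave 53 genes of the 10601 symbols in the table, and all 53 were among the 10588 genes tested. Another 19 protein-coding symbols of the same families, Adcy4, Adcy7 and Pde1c among them, were not analysed here.

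The right cortex was taken from 4 bigenic and 4 nontransgenic mice. Bigenic mice had the genotype Camk2a-tTa / deltaNLS-hTDP-43 on C57BL/6. A Camk2α promoter, which is active in forebrain excitatory neurons, drives the tetracycline transactivator, and the transactivator in turn drives a human TDP-43 that lacks a working nuclear localization signal. Doxycycline in the diet held the transgene off until 28 days of age, and RNA was taken 10 days after its removal. The 4 nontransgenic C57BL/6 controls came from parents heterozygous for each transgene and were kept on the same diet schedule, and each group of 4 held 3 males. Transgene expression is limited to the neurons that use this promoter, whereas the RNA is from whole cortex, so fewer cells of a type and less RNA per cell cannot be told apart in any value below.

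Adenylyl cyclases make cAMP when G protein-coupled receptors or calcium activate them, and phosphodiesterases hydrolyse it. PKA is a holoenzyme in which a pair of regulatory subunits holds a pair of catalytic subunits inactive until cAMP binds, and AKAPs place the holoenzyme at synapses, mitochondria, centrosomes or the nuclear envelope. In forebrain neurons the pathway couples neurotransmitter receptors and calcium entry to synaptic plasticity and, through CREB and CRTC proteins, to transcription.

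The 4 regulatory subunits differ at the site that blocks the catalytic cleft, which is shown here because the type I and type II genes are compared below. Each sequence is 27 bases of coding sequence (GENCODE vM1 on NCBIM37, the mm9 build), with the codon at the phosphorylation position in capitals. Type I subunits carry alanine or glycine there and act as pseudosubstrates, and type II subunits carry a serine that PKA can phosphorylate.
Prkar1a: cgacggcgccgaggtGCTatcagtgct
Prkar1b: cgtcgccggcggggcGGTgtgagtgct
Prkar2a: tttactagacgagtaTCAgtctgtgca
Prkar2b: ttcacaaggcgtgccTCGgtctgtgca

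Values are normalized counts, that is, reads per gene divided by a factor for each mouse and rounded. The 8 columns summed to between 20.1 M and 22.0 M. Mice are named by the order of their columns within a group, which carries no replicate number. In the first and second bigenic mice a read was worth 1.32 and 2.07 normalized counts, so these columns held about 15.2 M and 10.6 M reads on genes, and 3 reads in the second correspond to 6.20 normalized counts. The second nontransgenic mouse held about 20.4 M reads, and in the other 5 columns a read was worth no more than 1 normalized count. Those 5 columns therefore held at least about 20.7 M reads each. The second bigenic mouse, the shallowest of the 8, also stood apart from the other bigenic mice on the first principal component over all genes tested (-46.0, against -15.1 to -12.8). Mouse Tardbp had a log2(fold change) of -0.33 ± 0.07 (SE, limma adjusted p = 0.00645), and the transgene itself is not covered by the members.

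The right cortex label was checked against marker lists for the cells such a dissection can hold. All 10 cortical excitatory neuron markers were measured in both groups, with sums of 22461 to 32108 in bigenic and 27002 to 30326 in nontransgenic mice. All 4 choroid plexus markers tested of the 11 listed, led by Ttr, were upregulated, and their sum was 8385 to 19459 in bigenic against 363 to 1203 in nontransgenic mice. F5, Kl and Clic6 reached the filter of 10 reads per M of the column total in bigenic mice only. Their direction was therefore fixed by the filter, and the count of 4 is no support. Ttr reached it in both groups and made up most of the sum (7741 to 18520 in bigenic, 236 to 1023 in nontransgenic mice). The summed 9 tested striatal medium spiny neuron markers were 9159 in the first bigenic mouse, 2875 to 3277 in the other 3, 7919 in the second nontransgenic mouse and 5158 to 5737 in the other 3. Of 10 tested microglial markers 5 were downregulated and 0 upregulated (sums 6116 to 8135 against 8231 to 9539). For astrocyte markers these counts were 4 and 0 of 12 (129794 to 149663 against 158079 to 170081), for interneuron markers 4 and 0 of 10 (18525 to 19658 against 21119 to 23501), for oligodendrocyte markers 0 and 1 of 12 (73073 to 94295 against 72276 to 90694) and for endothelial markers 1 and 0 of 9 (5987 to 6886 against 6765 to 7516). Over all genes tested, 20.5% were upregulated and 15.4% downregulated, and these shares stand beside each of the marker counts. No tested marker of these lists was at 0 in any mouse, and the part of cell composition in the values below was not tested.

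Of the 53 cAMP genes, 26 (49.1%) were differentially expressed in bigenic mice by limma at a Benjamini-Hochberg adjusted p-value below 0.05, beside 35.9% of all genes tested. Upregulated were 15 (28.3%, against 20.5% of all genes) and downregulated were 11 (20.8%, against 15.4%). The values of bigenic and nontransgenic mice did not overlap for 24 of the 53, where 39.0% of all genes showed no overlap. Of these, 14 were higher in bigenic mice (22.3% of all genes) and 10 were lower (16.7% of all genes). The median log2(fold change) of the members was 0.05, beside 0.03 over all genes, and the median size regardless of sign was 0.33 beside 0.25. A change of at least 1.5-fold with a call was reached by 7 members (Adcy1, Adcy3, Pde8b, Prkar2b, Akap5, Creb3l2 and Crtc1), and by 1314 of the 10588 genes. All log2(fold changes) are differences of mean log2(normalized count + 1), bigenic minus nontransgenic, and understate the change of weakly expressed genes.

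Calls fell in both directions within most families. The 6 PKA subunits were called without exception and their groups did not overlap, with 2 up and 4 down. Of 7 cyclases 2 were upregulated and 1 was downregulated, and of 14 cyclic nucleotide phosphodiesterases 3 were upregulated and 5 downregulated. AKAPs gave 4 up and 1 down of 13, and the 10 CREB, CRTC and Rap exchange factor genes gave 3 up and 0 down. The filter on low values asked for 10 reads per M of the column total in at least 1 mouse. It was met in every mouse by 50 members, in both groups by 52 and in nontransgenic mice only by 1.

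**Figure D1:**
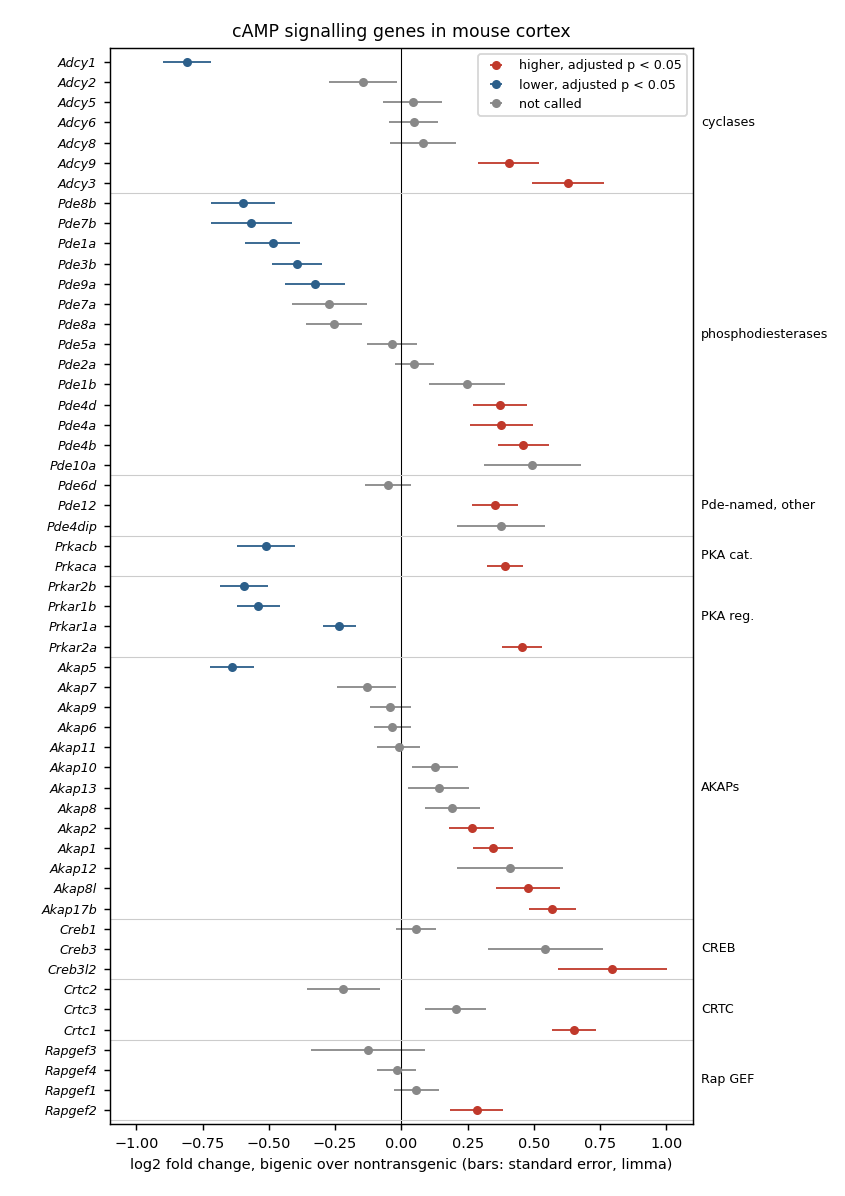
log2(fold change) of each of the 53 genes, bigenic over nontransgenic, with bars of 1 standard error from limma, grouped by role and ordered by value within a role. Red points are upregulated, blue points downregulated and grey points not called. Adcy1 sits lowest at -0.81 and Creb3l2 highest at 0.80, and the PKA groups hold no grey point.

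Adcy1, the calcium-calmodulin-stimulated cyclase of cortical and hippocampal neurons, was the most reduced member (chr11:6963492-7078509, mm9). Its bigenic values were 15016, 17618, 18614 and 18531, and its nontransgenic values were 28599, 28371, 33867 and 31259. Every bigenic mouse lay well below every nontransgenic mouse, and the level was 0.571 of the nontransgenic level, with a log2(fold change) of -0.81 ± 0.09 (SE, limma adjusted p = 0.000225). Adcy8, the other calcium-stimulated cyclase, did not follow it: 786 to 1197 in bigenic mice, 817 to 958 in the controls, and a log2(fold change) of 0.08 and a 95% interval of -0.19 to 0.36.

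Adcy3, the cyclase of olfactory and neuronal cilia, rose. Its bigenic values were 1261, 2021, 1337 and 1422, and its nontransgenic values were 957, 936, 934 and 1015 (0.63 ± 0.14 on the log2 scale, SE, limma adjusted p = 0.00608). The second bigenic mouse was the highest, and the other 3 were also above all controls. Its exons share 1380 bases with Cenpo on the opposite strand, and no source says that reads were counted by strand. Adcy9, a broadly expressed cyclase with little response to forskolin, measured 2041, 2637, 1937 and 2110 in bigenic and 1738, 1406, 1608 and 1823 in nontransgenic mice. It was upregulated by 0.40 ± 0.12 (SE, limma adjusted p = 0.0223), without overlap, but was not called when the second or the third nontransgenic mouse was left out (limma adjusted p = 0.0705 and 0.0606).

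The calcium-inhibited cyclases Adcy5 and Adcy6 were not called, with log2(fold changes) of 0.04 (95% interval -0.20 to 0.29) and 0.05 (-0.16 to 0.25). Adcy2, a cyclase that G protein beta-gamma subunits stimulate, was not called in all 8 mice (-0.14 ± 0.13, SE, limma adjusted p = 0.407), and it was downregulated when the second bigenic mouse was left out (-0.28, limma adjusted p = 0.0113). Without the third or the fourth bigenic mouse the value of Adcy2 was -0.09 or -0.06. In the second bigenic mouse Adcy2 measured 4746, whereas the other bigenic mice lay between 3032 and 3642 and the controls between 3781 and 4208.

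Per kb of annotated exon, Adcy1 made up 52.8% ± 1.90 (SD, n = 4) of the 7 cyclase transcripts in nontransgenic and 37.7% ± 4.36 in bigenic mice. The shares of Adcy3 were 3.34% ± 0.184 and 6.46% ± 0.835, and those of Adcy9 were 6.86% ± 0.691 and 11.3% ± 0.645. The sum of the 7 genes per kb ran from 4369 to 4877 in nontransgenic and from 3464 to 4217 in bigenic mice, so the total was lower in every bigenic mouse. Exon lengths come from all annotated exons of a gene, and the transcript counted may be shorter.

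**Figure D2:**
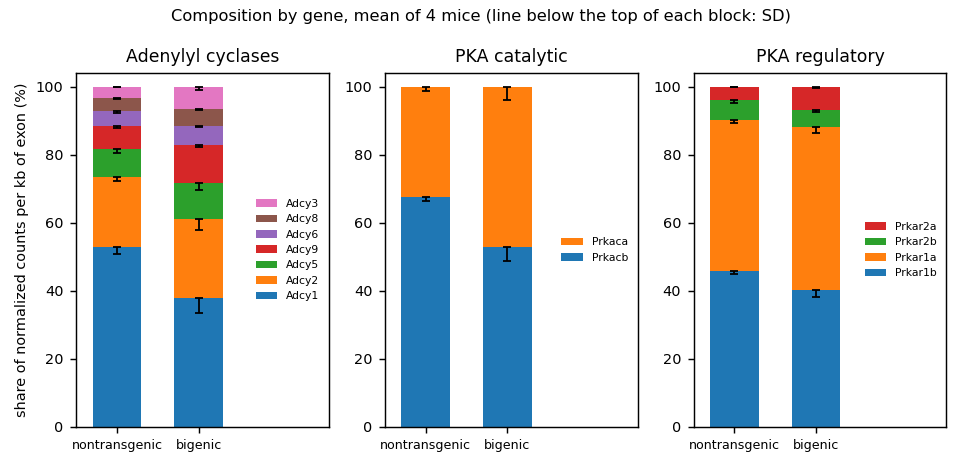
Stacked bars of the mean share of each gene in the summed normalized counts per kb of exon (%), for cyclases, PKA catalytic subunits and PKA regulatory subunits, in nontransgenic and bigenic mice (n = 4 each, with the SD drawn down from the top of each block). Adcy1 falls from 52.8% to 37.7% of the cyclases, and Prkaca goes from 32.3% to 47.2% of the catalytic subunits.

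Among phosphodiesterases the 3 genes of the cAMP-specific PDE4 family tested were upregulated, and the cAMP-specific Pde7b and Pde8b were downregulated. Pde4b, the PDE4 gene best known from dopamine and antipsychotic research, measured 4827, 4585, 5457 and 5394 in bigenic and 4187, 3725, 3612 and 3227 in nontransgenic mice. The groups did not overlap, and the log2(fold change) was 0.46 ± 0.10 (SE, limma adjusted p = 0.00529). Pde4a measured 2910, 4510, 3634 and 3528 in bigenic and 2675, 2717, 2789 and 2921 in nontransgenic mice (0.38 ± 0.12, SE, limma adjusted p = 0.0326). Pde4d, whose long and short forms differ in their regulation by PKA, measured 2947, 3679, 3597 and 3822 in bigenic and 2839, 2477, 2535 and 2972 in nontransgenic mice (0.37 ± 0.10, SE, limma adjusted p = 0.0174). For Pde4a and Pde4d the first bigenic mouse lay within the range of the controls and the other 3 lay above it.

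The log2(fold changes) of Pde4a and Pde4d stayed positive in every fit that left out a mouse (0.27 to 0.48 and 0.33 to 0.45), but their calls did not all hold. Pde4a was not called when the third or the fourth bigenic mouse or the first, the second or the third nontransgenic mouse was left out (limma adjusted p between 0.0590 and 0.0844). Pde4d was not called without the fourth bigenic or the second or the third nontransgenic mouse (limma adjusted p between 0.0501 and 0.0590). Without both the first and the second bigenic mouse Pde4a and Pde4d were called (0.37 and 0.46, limma adjusted p = 0.00104 and 0.00172). Pde4b stayed below the threshold in each of these 8 fits.

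Pde8b, a cAMP-specific enzyme with high affinity and no response to the inhibitor IBMX, fell most among phosphodiesterases. It measured 1517, 1127, 1698 and 1658 in bigenic mice and stayed between 2190 and 2272 in the controls, at 2238, 2272, 2269 and 2190. No bigenic mouse reached the lowest control (-0.60 ± 0.12, SE, limma adjusted p = 0.00465). Pde7b, also cAMP-specific, measured 1316, 757, 995 and 1034 in bigenic and 1648, 1498, 1544 and 1292 in nontransgenic mice, so the first bigenic mouse was just above the lowest control (-0.57 ± 0.15, SE, limma adjusted p = 0.0169). Without the first nontransgenic mouse it was not called (limma adjusted p = 0.0545). Their paralogs Pde7a and Pde8a had log2(fold changes) of -0.27 and -0.25 and were not called, although the values of Pde8a did not overlap (234 to 284 in bigenic, 291 to 346 in nontransgenic mice, limma adjusted p = 0.0866). Without the second bigenic mouse the log2(fold change) of Pde7a was -0.15, and without both the first and the second it was -0.02.

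Of the enzymes that hydrolyse both cAMP and cGMP, Pde1a, which calcium-calmodulin activates, measured 4685, 3778, 5077 and 4648 in bigenic and 6990, 5804, 6557 and 6033 in nontransgenic mice. All bigenic values were below all control values (-0.49 ± 0.10, SE, limma adjusted p = 0.00555). Its relative Pde1b, abundant in striatum, had a log2(fold change) of 0.25 and was not called (limma adjusted p = 0.198), and without the first bigenic mouse the value was 0.12. Pde3b, the enzyme through which insulin lowers cAMP, measured 344, 302, 316 and 276 in bigenic and 404, 386, 420 and 415 in nontransgenic mice (-0.40 ± 0.09, SE, limma adjusted p = 0.00959). Pde2a, which cGMP stimulates, was the phosphodiesterase with the highest level per kb of exon, at 1776 in bigenic and 1713 in nontransgenic mice, and was not called (log2(fold change) 0.05, 95% interval -0.11 to 0.21).

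Pde9a and Pde5a are specific for cGMP. Pde9a measured 215, 209, 263 and 225 in bigenic and 312, 262, 268 and 300 in nontransgenic mice, with 1 bigenic value inside the control range (-0.33 ± 0.11, SE, limma adjusted p = 0.0487). That call was lost in 7 of 8 fits that left out a mouse, all but the one without the third bigenic mouse, with limma adjusted p up to 0.133, and with column totals made equal (limma adjusted p = 0.0533). Pde5a was not called (log2(fold change) -0.04).

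Pde10a, a dual-specificity enzyme known for its high level in striatal neurons, was above all controls in each bigenic mouse, with 5363 in the first and 3044 to 3220 in the others against 2107 to 3004. It missed the threshold (0.49 ± 0.18, SE, limma adjusted p = 0.0594), and without the first bigenic mouse the log2(fold change) was 0.30. Without the second bigenic mouse it was called (0.54, limma adjusted p = 0.0331), and without both the first and the second it was not called (0.28, limma adjusted p = 0.0790). Pde10a, Pde1b and Adcy5 were each highest in the first mouse of the bigenic group and the second mouse of the nontransgenic group, the same mice that had the highest sum of striatal markers in their group. Between groups the order differed. The other bigenic mice had marker sums of 2875 to 3277, below every control (5158 to 7919), and Pde10a above every control. For Pde1b and Adcy5 the groups overlapped. The part of striatal tissue in these values was not tested.

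**Figure D3:**
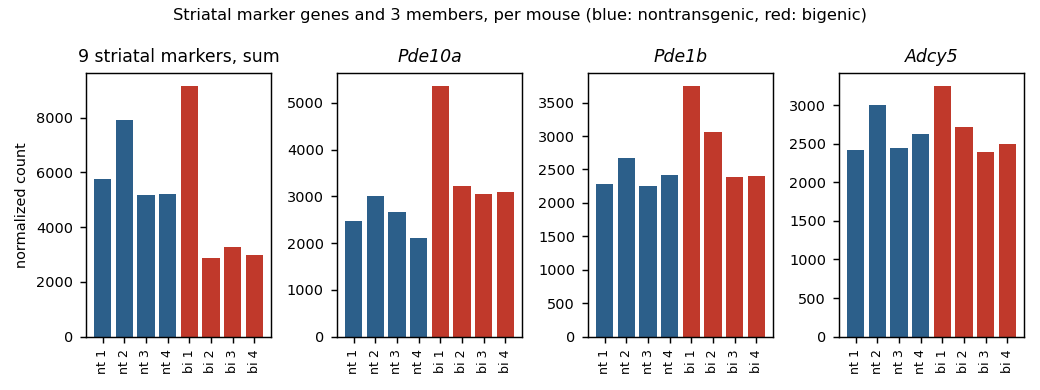
Normalized count in each mouse (blue nontransgenic, red bigenic) of the 9 striatal medium spiny neuron markers summed, and of Pde10a, Pde1b and Adcy5. The first bigenic mouse has the tallest bar in each panel (9159 for the marker sum, 5363 for Pde10a), and the second nontransgenic mouse is the tallest of the controls.

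A group of 3 genes carry Pde symbols without being cyclic nucleotide phosphodiesterases of the classical families. Pde12, a mitochondrial nuclease that removes poly(A) tails, measured 443, 405, 455 and 456 in bigenic and 362, 357, 317 and 341 in nontransgenic mice (0.35 ± 0.09, SE, limma adjusted p = 0.0112), and 527 bases of its exons overlap Arf4 on the opposite strand. Pde4dip, the Golgi and centrosome protein myomegalin, ranged from 7578 to 12925 in bigenic and from 6087 to 7791 in nontransgenic mice and was not called (0.38, limma adjusted p = 0.102). Without the second bigenic mouse the log2(fold change) of Pde4dip was 0.19. Pde6d, a carrier of prenylated proteins, was not called (-0.05).

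All 6 PKA subunit transcripts changed, with 1 rise and 1 fall among the catalytic and 1 rise and 3 falls among the regulatory subunits. Prkaca, which encodes the catalytic subunit Cα, measured 3597, 3603, 3454 and 3761 in bigenic and 2780, 2679, 2630 and 2904 in nontransgenic mice (0.39 ± 0.07, SE, limma adjusted p = 0.00197). Prkacb, which encodes Cβ and is abundant in brain, went the other way. It measured 8384, 11927, 9201 and 8912 in bigenic and 14599, 12582, 13477 and 13720 in nontransgenic mice (-0.51 ± 0.11, SE, limma adjusted p = 0.00579), the second bigenic mouse being the closest to the controls.

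Per kb of exon, the ratio of Prkaca to Prkacb was 1.01, 0.713, 0.886 and 0.996 in bigenic animals and 0.449, 0.502, 0.460 and 0.499 in controls. Its mean was 0.901 ± 0.138 (SD, n = 4) against 0.478 ± 0.0270. Prkaca thus formed 47.2% ± 4.01 of catalytic subunit transcripts in bigenic and 32.3% ± 1.24 in nontransgenic mice. Both ranges were apart, and the lowest bigenic ratio came from the second bigenic mouse.

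Prkar2a, encoding RIIα, was the regulatory subunit that rose, at 1762, 2062, 1839 and 1861 in bigenic and 1432, 1360, 1309 and 1383 in nontransgenic mice (0.45 ± 0.07, SE, limma adjusted p = 0.00156). Prkar2b, encoding the neuronal RIIβ, fell by 0.59 on the log2 scale (SE 0.09, limma adjusted p = 0.00102), with 1250, 1094, 1147 and 1095 in bigenic and 1830, 1877, 1734 and 1500 in nontransgenic mice. The pair shares the serine at the inhibitor site shown above and moved in opposite directions. The per-kb ratio of Prkar2a to Prkar2b was 1.44 ± 0.173 in bigenic and 0.694 ± 0.0761 in nontransgenic mice (SD, n = 4), and Prkar2a went from the less to the more abundant of the 2.

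The type I genes both fell. Prkar1b, encoding the neuronal RIβ, measured 9485, 11385, 9357 and 9277 in bigenic and 14768, 13512, 14617 and 14351 in nontransgenic mice (-0.54 ± 0.08, SE, limma adjusted p = 0.00101). The second bigenic mouse was again the nearest to the controls, and without it the log2(fold change) was -0.61. Prkar1a, encoding the ubiquitous RIα, had the smallest change of the 6, with 14022, 14508, 14400 and 13993 in bigenic and 17336, 16024, 16311 and 17295 in nontransgenic mice (-0.23 ± 0.06, SE, limma adjusted p = 0.0156). The spread of Prkar1a among bigenic mice (SD 262) was small beside the gap between the group means of 14231 and 16742. Per kb of exon, Prkar1b and Prkar1a were the main regulatory transcripts in both groups, with 40.1% ± 2.01 and 48.0% ± 1.75 of the total in bigenic and 45.8% and 44.4% ± 0.851 in nontransgenic mice.

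**Figure D4:**
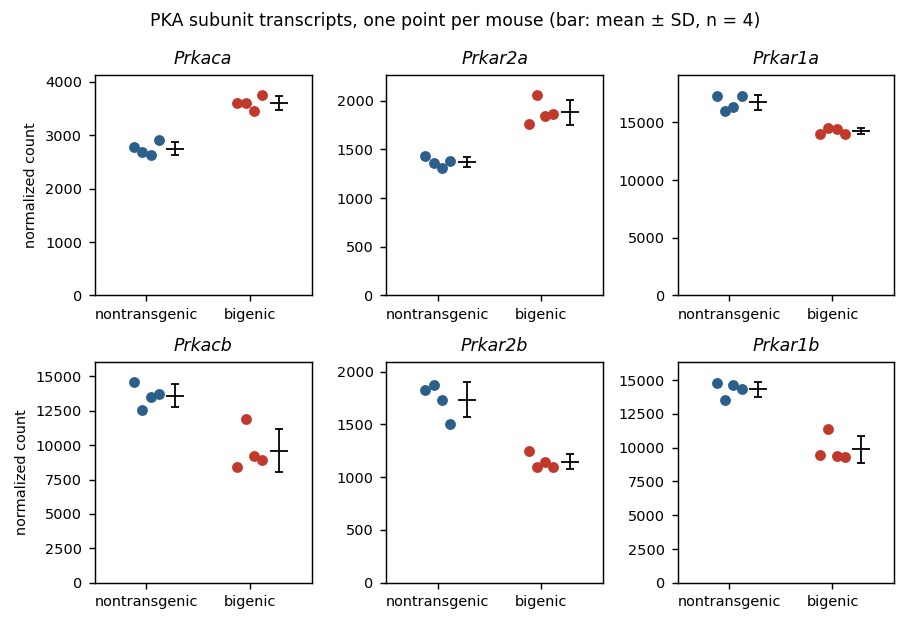
Normalized counts of the 6 PKA subunit genes, one point per mouse, with the mean ± SD of each group of 4 beside the points and axes that start at 0. Prkaca and Prkar2a are higher in every bigenic mouse, and Prkacb, Prkar2b, Prkar1a and Prkar1b are lower in every bigenic mouse.

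The calls of the 6 subunits were kept in each of the 8 fits without a mouse, with the highest limma adjusted p at 0.0499 for Prkar1a. Prkar1b shares 341 bases of exon with Gm15672 on the same strand, and 97.1% of the 50-base windows of Prkaca occur once in the genome. For the other 5 subunit genes every window was unique.

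Akap5, the postsynaptic anchor (AKAP150 in mouse) that holds PKA and calcineurin near glutamate receptors, was the single AKAP that fell (chr12:77425878-77435140, mm9). It measured 2767, 3330, 2715 and 2854 in bigenic and 4786, 4434, 4550 and 4354 in nontransgenic mice. Each bigenic mouse was below each control, at 0.642 of the control level (-0.64 ± 0.08, SE, limma adjusted p = 0.000416), and 95.7% of its 50-base windows are unique.

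Another 4 AKAPs rose. Akap17b, on the X chromosome, measured 1299, 1164, 1428 and 1332 in bigenic and 801, 893, 864 and 960 in nontransgenic mice (0.57 ± 0.09, SE, limma adjusted p = 0.00119). Akap8l, a nuclear relative of Akap8, measured 2750, 3458, 2641 and 2619 in bigenic and 1858, 1867, 2030 and 2476 in nontransgenic mice (0.48 ± 0.12, SE, limma adjusted p = 0.0128). Neighbouring Akap8, which encodes the nuclear anchor AKAP95, had a log2(fold change) of 0.19, or 0.12 without the second bigenic mouse, and was not called.

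Akap1, the anchor of the outer mitochondrial membrane, had a mean of 1270 ± 88.2 in bigenic and 998 ± 33.5 in nontransgenic mice (SD, n = 4) and was upregulated (0.35 ± 0.08, SE, limma adjusted p = 0.00643). Akap2 was upregulated by 0.26 ± 0.09 (SE, limma adjusted p = 0.0379), but 7320 bases of its exons are shared with AF064781 on the same strand. Its call was lost in 5 of the 8 fits that left out a mouse, those without the first or the fourth bigenic or the first, the second or the third nontransgenic mouse (limma adjusted p up to 0.109).

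The other 8 AKAPs were not called. Akap6, of the nuclear envelope, Akap9, of the Golgi and centrosome, and Akap11, which also binds glycogen synthase kinase 3, were the most abundant by normalized count and had log2(fold changes) of -0.03, -0.04 and -0.01, with 95% intervals of -0.19 to 0.12, -0.21 to 0.13 and -0.19 to 0.17. Akap7, Akap10 and Akap13 lay at -0.13, 0.13 and 0.14. The value of Akap7 was -0.04 without the first bigenic mouse, that of Akap10 was 0.07 without the fourth, and that of Akap13 was 0.02 without the second. Akap12, the scaffold gravin, ranged from 1319 to 2382 in bigenic and from 1034 to 1557 in nontransgenic mice (0.41, limma adjusted p = 0.134), its highest value being in the second bigenic mouse, without which the log2(fold change) was 0.21.

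Of the CREB and CRTC genes, Crtc1, the main CREB coactivator of forebrain neurons, rose by 0.65 ± 0.08 (SE, limma adjusted p = 0.00041). It measured 4420, 4293, 4801 and 5277 in bigenic and 2833, 2996, 2917 and 3181 in nontransgenic mice (chr8:72906254-72963478, mm9), and the lowest bigenic value was well above the highest control value. Crtc2 and Crtc3 were weakly expressed beside it, at 46.2 and 31.1 normalized counts per kb of exon in bigenic mice against 420.1 for Crtc1, and were not called (log2(fold changes) -0.22 and 0.20). Without the fourth nontransgenic mouse the value of Crtc2 was -0.10. Creb1 itself was not called, at 1717 to 2006 in bigenic and 1763 to 1869 in nontransgenic mice (0.05, 95% interval -0.11 to 0.22).

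Creb3l2 and Creb3 encode membrane-bound factors of the endoplasmic reticulum that do not depend on PKA for activation in the way Creb1 does. Creb3l2 measured 262, 407, 234 and 259 in bigenic and 137, 160, 144 and 223 in nontransgenic mice (0.80 ± 0.21, SE, limma adjusted p = 0.0143), a rise with the largest log2(fold change) of all members and also with one of the largest errors. Creb3 measured 2095 in the second bigenic mouse, 948 to 1108 in the others and 802 to 895 in the controls. With all mice it was not called (0.54 ± 0.22, SE, limma adjusted p = 0.0759), and it was called without that mouse (0.28, limma adjusted p = 0.0111) or without the third bigenic mouse (0.66, limma adjusted p = 0.0468). The exons of Creb3 overlap Gba2 and Tln1 on the opposite strand by 133 and 360 bases.

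Of the 4 Rap exchange factors 1 was called. Rapgef3 and Rapgef4 encode Epac1 and Epac2, which cAMP activates directly, and had log2(fold changes) of -0.13 (95% interval -0.61 to 0.35) and -0.02 (-0.18 to 0.14). The value of Rapgef3 ran from -0.31 to 0.01 over the fits that left out a mouse. Rapgef4 was the more abundant, at 2574 normalized counts per kb of exon in bigenic and 2611 in nontransgenic mice. Rapgef1 and Rapgef2 encode exchange factors that are not classical cAMP targets. Rapgef1 was not called (0.06), and Rapgef2 was at the threshold (0.28 ± 0.10, SE, limma adjusted p = 0.0499) with overlapping groups. Its call was lost in 7 of 8 fits without a mouse, all but the one without the fourth nontransgenic mouse (limma adjusted p up to 0.145).

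**Figure D5:**
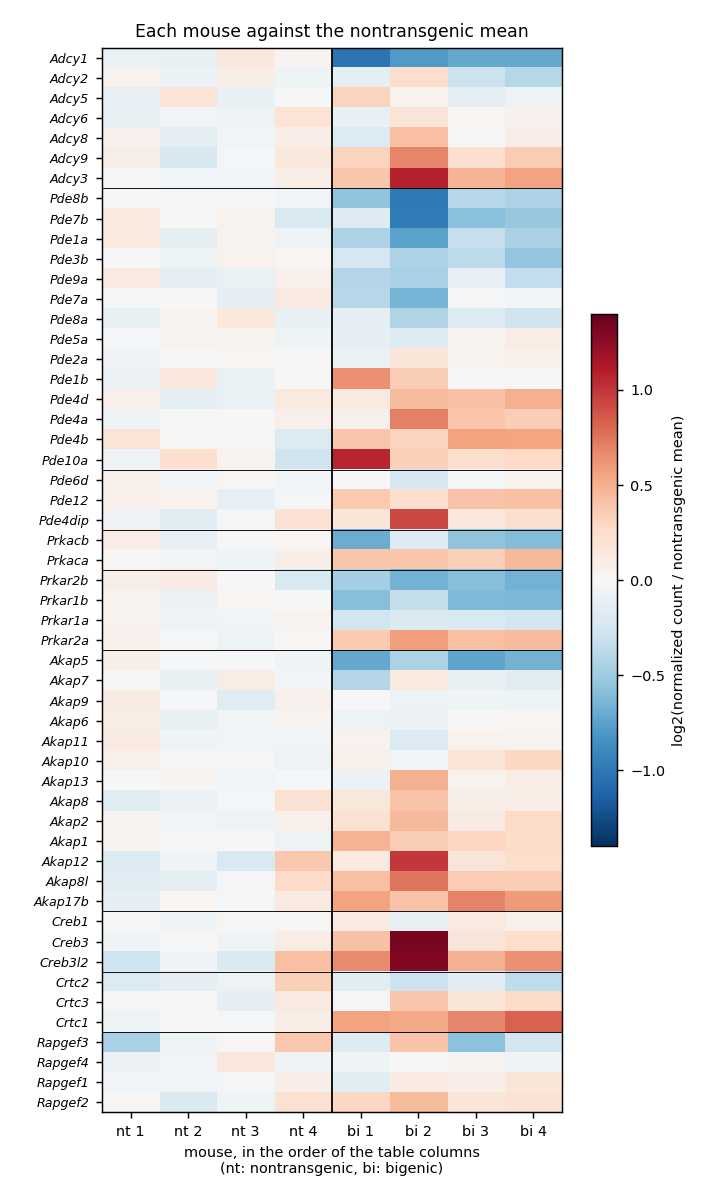
Heat map of log2(normalized count over the nontransgenic mean) for the 53 genes (rows, by role) in the 4 nontransgenic and 4 bigenic mice (columns, by table order), red above and blue below the control mean. Rows such as Adcy1, Akap5 and Crtc1 have one colour across all 4 bigenic mice, whereas Creb3, Akap12 and Pde4dip are darkest in the second bigenic mouse and Pde10a in the first.

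Features that were not used to choose the genes were compared as a description. The members are long genes, with a median span of 102 kb against 28.3 kb for all genes tested. The 11 downregulated members had a longer median span (115 kb) than the 15 upregulated members (57.4 kb). The order was the same over all genes tested, at 33.97 kb for those downregulated and 27.03 kb for those upregulated. The median normalized count of the members was 1913 against 838 over all genes. A run of at least 6 TG units, a letter pattern to which TDP-43 is known to bind as UG in RNA, was present in the longest coding transcript of 5 of 53 members (9.43%) and 657 of 10148 genes (6.47%). The 5 were Akap5 with 20 units, Rapgef3, Akap10, Akap2 and Akap11, all in the 3′ UTR, and among them Akap5 was downregulated, Akap2 upregulated and 3 were not called. The transcripts searched had a median length of 4.21 kb in members and 3.19 kb over all genes.

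RefSeq promoters (GRCm38.p6, 250 bases before to 50 after a start) were found for 45 of the 53 genes. The cAMP response element TGACGTCA, which reads the same on both strands, occurred in the promoters of Prkar1a alone. Counted by gene this is 1 of 45 (2.22%, against 2.03% of all genes). Counted by promoter it is 2 of 84 (2.38%, against 1.79% of all promoters), but the 2 promoters overlap and hold the same site. The stretch (chr11:109650854-109650953, GRCm38.p6, plus strand) is printed because Prkar1a is both a PKA subunit that fell and the holder of this element, in capitals. The element lies at positions -49 to -42 from a start and at 38 to 45 from another. A match is letters only and says nothing of binding.
Prkar1a promoter: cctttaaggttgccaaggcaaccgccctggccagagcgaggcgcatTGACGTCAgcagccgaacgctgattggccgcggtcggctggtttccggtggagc
The shorter TGACG, counted on either strand and including the full element, occurred in 18 of 84 member promoters (21.4%) and in 20.8% of all promoters. Counted by gene, it was in at least 1 promoter of 16 of 45 members (35.6%) and of 23.0% of all genes, and the 45 members had 84 promoters whereas the 27025 genes had 32851. Among promoters of upregulated members it was in 7 of 24 (7 of 14 genes) and among those of downregulated members in 7 of 28 (5 of 9 genes).

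Upstream of the cyclases, 38 of 51 listed receptors, their peptides and G proteins were tested, of which 6 were upregulated and 13 downregulated, with a median log2(fold change) of -0.08. Npy2r and Grm4, among those downregulated, passed the filter on low values in nontransgenic mice only, so the filter favoured a fall. Gnai1, an inhibitory G protein α subunit, fell by 0.84 on the log2 scale (limma adjusted p = 4e-05). Oprl1, the nociceptin receptor, rose by 0.67 (limma adjusted p = 0.000412), and Grm8, a glutamate receptor that couples to inhibitory G proteins, fell by 0.65 (limma adjusted p = 0.000665).

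Of 17 tested PKA inhibitors and other cAMP or cGMP effectors, 3 were upregulated and 5 downregulated (median -0.04). Hcn3, of the cyclic nucleotide-gated HCN channel family, rose by 1.36 (limma adjusted p = 2.7e-05). It passed the filter on low values in bigenic mice only (433 to 499, against 162 to 197 in nontransgenic mice), so the filter favoured a rise. Pkig, a peptide inhibitor of PKA, fell by 1.04 (limma adjusted p = 7.97e-05), and Prkg2, a cGMP-dependent kinase, fell by 0.63 (limma adjusted p = 0.000401). Among 10 anchoring proteins without an Akap symbol 0 were upregulated and 2 downregulated (median -0.01): Wasf1, an actin regulator that binds PKA (-0.69, limma adjusted p = 0.000225), and Nbea, neurobeachin (-0.45, limma adjusted p = 0.0017). Sphkap, next by adjusted p, was not called (0.16).

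Downstream, 23 of 24 listed CREB target genes were tested, and 2 were upregulated and 5 downregulated (median -0.08). Gadd45b, a stress- and activity-induced gene, rose by 0.98 (limma adjusted p = 0.000715). Nptx2, a pentraxin of excitatory synapses, fell by 1.14 (limma adjusted p = 0.000927), and Sst, which also stands in the interneuron list, fell by 0.46 (limma adjusted p = 0.00277). Of the 8 CREB partners and relatives tested, Crebl2 was upregulated (0.32) and Crebzf downregulated (-0.33), and Ep300, next by adjusted p, was not called (0.20). The share called over all genes, 20.5% upregulated and 15.4% downregulated, stands beside each of these counts. The lists for receptors, effectors and CREB targets share 5 tested genes (Adora2a, Drd1a, Drd2, Ppp1r1b and Penk) and the untested Gpr6 with the striatal markers.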

How the data were processed

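Poly(A)+ RNA of 8 right cortices was sequenced as single reads. Adaptors were removed by the authors with cutadapt, and Bowtie 0.12.7 placed the reads on mm9. Only uniquely placed reads were counted per exon (bedtools), and exon counts were added up per gene. The deposited signal is a whole number for each of 28662 transcripts and each mouse, called a normalized count here, since each column is scaled by a factor per mouse that is not given in the sources used here. A further deposited table gives DESeq2 fold changes and p-values by the authors, of which none was used, and gene symbols, which were joined by transcript identifier. Columns give a mouse's group and no replicate number.

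Genes that reached 10 reads per M of the column total in 1 mouse or more entered the fit (10588 genes). They were transformed as log2(value + 1) and compared with limma 3.58.1 (R 4.3.3, trend, all 8 mice, no covariate), with Benjamini-Hochberg adjustment over all genes tested. Intervals are 95% limits from the same fit. Raw counts could not be recovered in 5 columns, in which a read is worth no more than 1, so count models were not run. The remaining 3 columns lacked at least 1 whole number up to 100, and in these the worth of a read was estimated by maximum likelihood. The worth that best fitted how often each low whole number occurred was taken. Floors and depths cover counting error only. Positions, exon lengths, overlaps and unique windows came from GENCODE vM1 on NCBIM37. Figures and tables were made with Python 3.11.15.

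Every member is given by role. Values of each mouse are printed for called members, at most the 12 largest rises and falls, and by range or log2(fold change) for others. The 3 smallest adjusted p-values are named in each pathway list. Members and lists were chosen with earlier results of these data known. Alternatives were pseudocounts of 10 and 0.1, no filter and a filter in every mouse, rescaled totals, quantile normalization, array weights and leaving out each mouse. Leaving out the first and second bigenic mice together was chosen after seeing the data.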

Additional observations from a re-analysis of the deposited data

Results flagged for a closer look

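Values far from the other 3 mice of their group, by the gap to the nearest divided by the range of the group, were found in 10 of 106 groups examined. Chance gives about 1 in 20 for a single group, but the groups are genes of the same mice and not independent. The count therefore cannot be set against that rate. Of the 10 flagged values, 7 were in the second bigenic mouse and 1 in the first. In the second bigenic mouse Pde4dip measured 12925 (others 7578 to 7951), Prkar1b 11385 (9277 to 9485), Akap12 2382 (1319 to 1417), Akap8l 3458 (2619 to 2750), Creb3 2095 (948 to 1108) and Creb3l2 407 (234 to 262), each the highest, and Akap11 10082 (11873 to 11936), the lowest. In the first bigenic mouse Pde10a measured 5363 (3044 to 3220). Among nontransgenic mice Akap11 measured 12519 in the first (11165 to 11200) and Creb1 1763 in the second (1863 to 1869). The second bigenic mouse had the fewest reads of all columns, and the part of depth in these values was not tested.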

How the results depend on the processing

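None of the 26 called members changed sign in any of the 16 alternatives, and 17 kept their call in all of them. In the 8 fits that leave out a mouse, 19 of the 26 were called every time (10 higher and 9 lower). These fits called 1512 to 2683 of all genes higher and 1113 to 2134 lower, 10 to 16 members higher and 9 to 11 lower, and gave a median log2(fold change) of the members of 0.04 to 0.10. Array weights called 3611 genes higher and 2844 lower, and 22 members higher and 13 lower. Without the filter on low values 8 members were called higher and 9 lower, with 28662 transcripts in the fit and in the adjustment. Without the first and second bigenic mice 15 members were called higher and 11 lower (2744 and 2086 of all genes, median of the members 0.06). Quantile normalization moved the median of all genes from 0.03 to -0.00. Akap8l and Creb3l2 lost their call only without the filter (limma adjusted p = 0.0669 and 0.0779). No paired analysis was possible because the columns carry no replicate numbers, so the replicate block was not run. Depth was estimated for 3 of the 8 columns, and for the others only a lower limit is known. Members were well above the floor of 3 reads, the lowest value being 137 in Creb3l2.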
